A study of Mus musculus with 6 samples.

Results

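The 10 genes described here are immediate-early genes that lie outside the AP-1 family: Egr1, Egr2, Egr3, Ier2, Ier3, Ier5, Nr4a1, Klf6, Srf and Maff. They were taken by symbol from a table of 22192 genes, and all 10 were present once in it. The libraries hold polyadenylated RNA of RAW 264.7, a macrophage-like line of BALB/c mouse origin, so all come from 1 transformed line. In 3 libraries, called ASPS-A1 after their treatment label, the cells had been kept for 24 h in medium with 200 µg/mL of that acidic polysaccharide, a purified fraction of Acanthopanax senticosus leaves. Cells of 3 further libraries, called Con, were labelled control, and what they received in place of the polysaccharide is not given in the sources used here. The series title names the TLR, MAPK and NF-κB pathway, and immediate-early genes are often induced by such signalling. Their levels at 24 h are not taken here as measures of pathway activity.

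Immediate-early genes are transcribed within minutes of a stimulus from factors that the cell already holds, without new protein synthesis, and most of their transcripts are short-lived. In macrophages, Toll-like receptor ligands switch many of them on through MAP kinases, which act on serum response factor (SRF) and its ternary complex partners and on CREB, and through NF-κB. SRF binds the CArG box, CREB binds the cyclic AMP response element, NF-κB binds the kappaB motif, and the EGR zinc fingers bind a GC-rich motif. A single collection at 24 h measures the levels long after such a first wave, and no earlier time was analysed here.

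Promoter stretches that hold these motifs are shown first, for some of the members whose windows held them. The windows of Ier5 and Klf6 held none of the motifs searched. RefSeq windows (build GRCm38.p6) were found for 7 of the 10 genes, in 13 windows (none for Egr1, Egr3 and Ier2), and the 250 bases before each start were searched on both strands. Srf and Egr2 held CArG boxes, which are in capitals in the Srf promoter (chr17:46556163-46556412, minus strand) and in 2 stretches before different Egr2 starts (chr10:67537484-67537513 and chr10:67537787-67537816, plus strand). Ier3 held a kappaB motif, in capitals (chr17:35821463-35821712, plus strand). In the Maff stretch (chr15:79347480-79347509, plus strand) the capitals mark the cyclic AMP response element TGACGTCA, and in the Nr4a1 stretch (chr15:101266765-101266822, plus strand) they mark its half-site TGACG, read on the other strand.
Srf: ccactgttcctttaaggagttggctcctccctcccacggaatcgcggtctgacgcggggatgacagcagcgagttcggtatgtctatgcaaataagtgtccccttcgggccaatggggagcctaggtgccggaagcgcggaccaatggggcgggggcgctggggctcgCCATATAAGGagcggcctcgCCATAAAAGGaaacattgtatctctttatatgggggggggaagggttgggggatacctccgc
Egr2, upstream site: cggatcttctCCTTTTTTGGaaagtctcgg
Egr2, downstream site: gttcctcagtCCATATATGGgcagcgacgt
Ier3: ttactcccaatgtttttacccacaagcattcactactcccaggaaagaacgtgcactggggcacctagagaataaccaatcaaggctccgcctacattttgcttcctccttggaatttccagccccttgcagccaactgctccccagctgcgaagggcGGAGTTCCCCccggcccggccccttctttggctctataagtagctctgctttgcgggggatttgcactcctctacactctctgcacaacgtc
Maff: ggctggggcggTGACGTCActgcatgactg
Nr4a1: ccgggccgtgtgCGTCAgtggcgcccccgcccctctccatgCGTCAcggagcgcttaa

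CArG boxes were in the windows of 2 of the 7 genes, against 1.62% of all 27025 genes with a window. The kappaB motif was in those of 3 of 7 (Egr2, Ier3 and Maff) against 8.23% of all genes, and the EGR motif (GCGGGGGCG or GCGTGGGCG) in those of 3 of 7 (Maff, Nr4a1 and Srf) against 3.47%. The whole cyclic AMP response element was in 1 of 7 (Maff) against 1.77%, and its half-site, which the whole element contains, in 4 of 7 (Egr2, Maff, Nr4a1 and Srf) against 19.8%. An AP-1 site (TGACTCA or TGAGTCA) was in 0 of 7 against 5.16%. Egr2 has 5 windows, of which 3 overlap, and Maff has 3, which gives these genes more places for a match. A match describes letters and does not show that a factor was bound, and the build behind the counts is not given in the sources used here.

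Libraries held 19989318 to 26137127 counts, and 11686 genes were abundant enough to test. All 10 macrophage markers checked were detected, 9 of them with at least 10 counts in every library, and the exception was Mrc1 with 1 count over all libraries. Their summed level was 3215 to 3341 CPM (read counts scaled to library size) with ASPS-A1 and 2269 to 2295 CPM in Con, and its part in the results below was not tested. Markers of fibroblasts, epithelium, T cells, endothelium and neutrophils summed to at most 1.03 CPM in any library, with the T cell markers Cd3e and Cd3g at 0. The B cell list summed to 30.3 to 38.3 CPM, nearly all of it Cd79b. Nothing states that the libraries of a group came from separate cultures, so p-values measure the spread between these libraries. In bulk RNA, fewer cells with a transcript and less transcript per cell cannot be told apart.

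The 10 genes moved in both directions and mostly by small amounts after 24 h of ASPS-A1. Klf6, Ier2, Ier5 and Maff rose, by 1.22- to 1.65-fold, while Ier3 fell 1.48-fold and Egr2 fell 6.85-fold. Egr1, Egr3, Nr4a1 and Srf did not pass the test. Egr2 had too few counts with ASPS-A1 to enter the test other than through Con, which limits what its call shows. Of the 10 genes, 6, Egr2 included, were past an adjusted p of 0.05 (edgeR's quasi-likelihood test with Benjamini-Hochberg adjustment over all genes), where 65.3% of all 11686 tested genes were. The 4 risen genes compare with 32.4% of all tested genes called higher, and the 2 fallen with 33.0% called lower (4 and 2 of 10), so the share called is near that of all genes and is no result about the set. The same 6 genes had groups with no overlap, 4 above and 2 below Con, against 68.5% of all tested genes (33.7% above and 34.8% below). Over the 10 genes the median log2 fold change was 0.12, with a range of −2.78 to 0.72, beside a median of −0.02 for all tested genes.

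**Figure D1:**
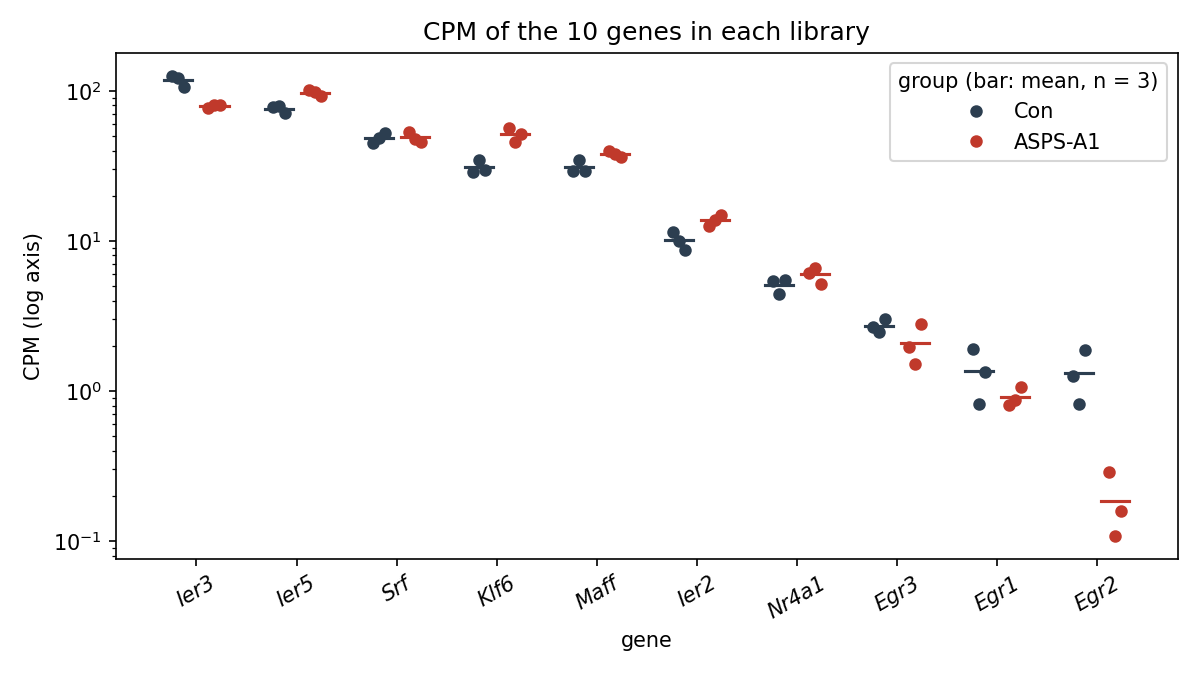
CPM of the 10 genes in each library on a log axis, Con and ASPS-A1 side by side, with a bar at each mean (n = 3). Ier3 and Egr2 are the genes whose ASPS-A1 libraries all lie below Con, and the ASPS-A1 libraries of Klf6, Ier5, Maff and Ier2 all lie above.

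Egr2 is one of the zinc-finger EGR factors, which bind the GC-rich EGR motif. Its counts were 6, 2 and 3 with ASPS-A1 and 31, 21 and 53 in Con, or 0.286, 0.109 and 0.159 CPM against 1.25, 0.813 and 1.88 CPM. All ASPS-A1 libraries lay below all Con libraries. Its log2 fold change was −2.78 ± 0.52 SE (adjusted p = 9.42e-06, edgeR), and the ratio of the summed counts gave 7.05-fold lower, with a 95% interval of 3.78 to 14.6 that covers counting error only. Egr2 reached 10 counts in all 3 Con libraries and in 0 ASPS-A1 libraries, so it entered the test through the group where it was higher, a choice of genes that favours a difference of this sign. With no filter on low counts, so that its entry did not depend on Con, the log2 fold change was −2.78 (adjusted p = 1.40e-06, edgeR). That fit reuses the same libraries and gave every called member a smaller adjusted p, so it is no independent support for Egr2. A stricter filter (1 CPM in 3 libraries) left it untested.

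Egr1, the best studied member of the EGR family, had 0.811, 0.870 and 1.06 CPM with ASPS-A1 and 1.90, 0.813 and 1.35 CPM in Con, from 16 to 20 and 21 to 47 counts. The groups overlapped through Con replicate 2, whose value lay at the low end of the ASPS-A1 libraries. The log2 fold change was −0.56 ± 0.38 SE (adjusted p = 0.194, edgeR), and without Con replicate 1, the library with the highest Egr1, it was −0.25 (adjusted p = 0.638). Without Con replicate 2 it was −0.82 (adjusted p = 0.0831, edgeR). Egr3 had 1.96, 1.52 and 2.81 CPM with ASPS-A1 and 2.66, 2.48 and 3.01 CPM in Con. Here ASPS-A1 replicate 3 lay within the Con range and the other ASPS-A1 libraries below it. The log2 fold change of Egr3 was −0.38 ± 0.26 SE (adjusted p = 0.210, edgeR), and without ASPS-A1 replicate 2 it was −0.20 (adjusted p = 0.554). Without ASPS-A1 replicate 3 it was −0.64 (adjusted p = 0.0653, edgeR). By counting error alone the ratio of the summed counts was 0.677 for Egr1 (95% interval 0.477 to 0.950) and 0.768 for Egr3 (0.610 to 0.964), whereas the test also takes in the spread between libraries.

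The 3 IER genes, whose name means immediate early response, went different ways. Ier3, a regulator of cell survival and a known NF-κB target, had 76.6, 80.7 and 81.0 CPM with ASPS-A1 and 126, 123 and 105 CPM in Con. Its highest ASPS-A1 library lay well below its lowest Con library. The fall was −0.57 ± 0.06 SE on the log2 scale (adjusted p = 1.56e-11, edgeR). Ier5, which takes part in the heat-shock factor response, had 102, 98.0 and 92.1 CPM with ASPS-A1 and 77.5, 79.8 and 71.1 CPM in Con. It rose by 0.35 ± 0.06 SE on the log2 scale (adjusted p = 6.85e-07, edgeR), and the groups did not overlap. Ier3 therefore lay above Ier5 in Con and below it with ASPS-A1 on the CPM scale, which does not account for length.

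Ier2, a nuclear protein tied to growth factor responses, had 12.6, 13.9 and 14.8 CPM with ASPS-A1 and 11.5, 9.99 and 8.76 CPM in Con. The ASPS-A1 libraries were all above Con, by a narrow margin between the nearest pair. Ier2 rose by 0.45 ± 0.12 SE on the log2 scale (adjusted p = 0.00118, edgeR). The call ended with scaling by library totals alone (0.25, adjusted p = 0.0649) and with offsets that remove trends on transcript length and GC content (0.26, adjusted p = 0.0534).

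Klf6, a zinc-finger factor of the Krüppel-like family with a role in macrophage inflammatory gene expression, had the largest rise of the set. It stood at 56.8, 45.8 and 51.2 CPM with ASPS-A1 and at 28.8, 34.5 and 29.8 CPM in Con. Every ASPS-A1 library lay above every Con library. Its log2 fold change was 0.72 ± 0.08 SE (adjusted p = 8.72e-11, edgeR), a value that 91.0% of the tested genes lay below. Maff, a small Maf protein that lacks an activation domain of its own and works with CNC partners such as NRF2, had 39.6, 38.2 and 36.1 CPM with ASPS-A1 and 29.4, 34.5 and 29.1 CPM in Con. The groups did not overlap, and Con replicate 2 came nearest to the ASPS-A1 libraries. Maff rose by 0.29 ± 0.08 SE on the log2 scale (adjusted p = 0.00110, edgeR), but had 0.10 (adjusted p = 0.273) with scaling by library totals alone.

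Nr4a1, the orphan nuclear receptor also called Nur77, had 6.11, 6.63 and 5.19 CPM with ASPS-A1 and 5.36, 4.45 and 5.46 CPM in Con. ASPS-A1 replicate 3 lay within the Con range and the other ASPS-A1 libraries above it. The log2 fold change was 0.23 ± 0.17 SE (adjusted p = 0.234, edgeR). Srf, the factor that drives many of these genes through the CArG box, had 53.5, 48.0 and 45.3 CPM with ASPS-A1 and 45.1, 48.2 and 52.2 CPM in Con. The ranges of the groups were nearly the same. The log2 fold change of Srf was 0.01 ± 0.07 SE (adjusted p = 0.882, edgeR). Its sign depended on the scaling: with library totals alone it was −0.18 (adjusted p = 0.0292), a call in the other direction.

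**Figure D2:**
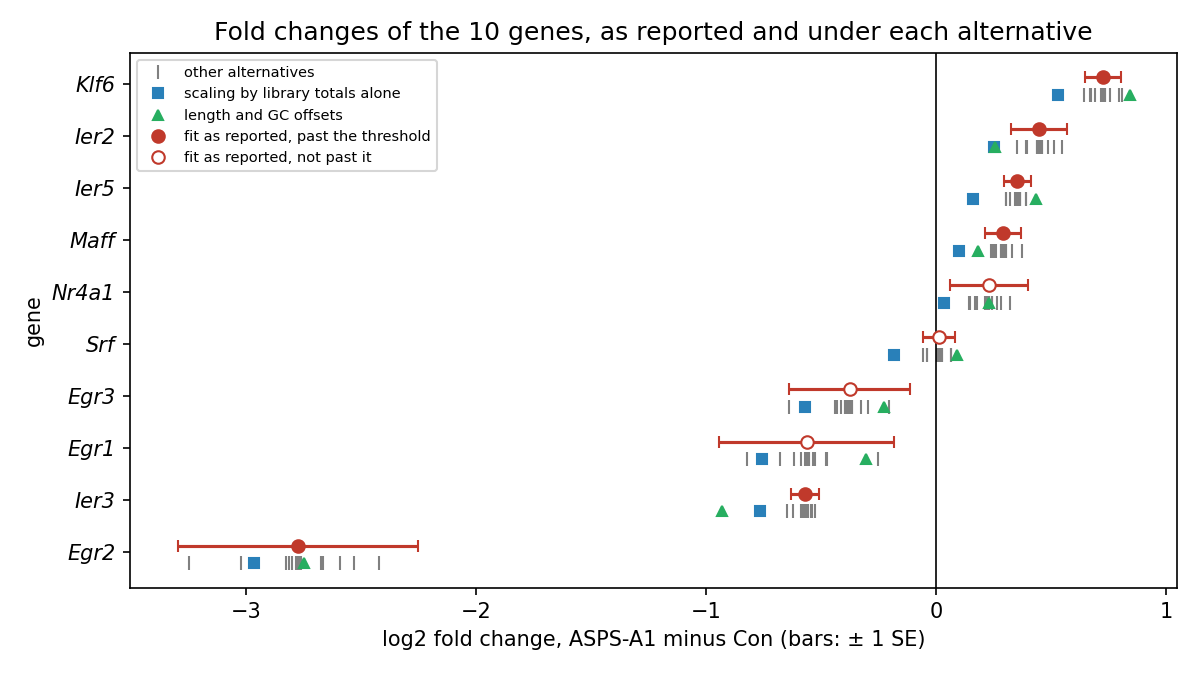
Log2 fold changes (ASPS-A1 minus Con) of the 10 genes: circles with bars of ± 1 SE give the fit as reported (filled: past the threshold), and the marks below each give the alternatives. For every gene but Srf all marks stay on the same side of 0 as the fit as reported, while Srf has marks on both sides.

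Genes that differ in length can be compared only per length, here as CPM per kilobase of the longest GENCODE transcript. In Con the order of the mean levels was Ier3 (104 CPM per kb), Ier5 (23.2), Srf (18.5), Maff (15.8), Klf6 (7.35), Ier2 (6.62), Nr4a1 (1.99), Egr3 (0.690), Egr2 (0.443) and Egr1 (0.302). Neighbours whose library ranges overlapped in Con were Srf and Maff, Klf6 and Ier2, Egr3 and Egr2, and Egr2 and Egr1. With ASPS-A1 the order was Ier3 (70.2 CPM per kb), Ier5 (29.7), Maff (19.4), Srf (18.7), Klf6 (12.1), Ier2 (9.03), Nr4a1 (2.34), Egr3 (0.532), Egr1 (0.204) and Egr2 (0.0623). Maff and Srf overlapped there, so their change of place is within the spread, whereas Klf6 (10.8 to 13.5) no longer overlapped Ier2 (8.25 to 9.74). Egr2 (0.0367 to 0.0966) lay below Egr1 (0.181 to 0.236) in all ASPS-A1 libraries.

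**Figure D3:**
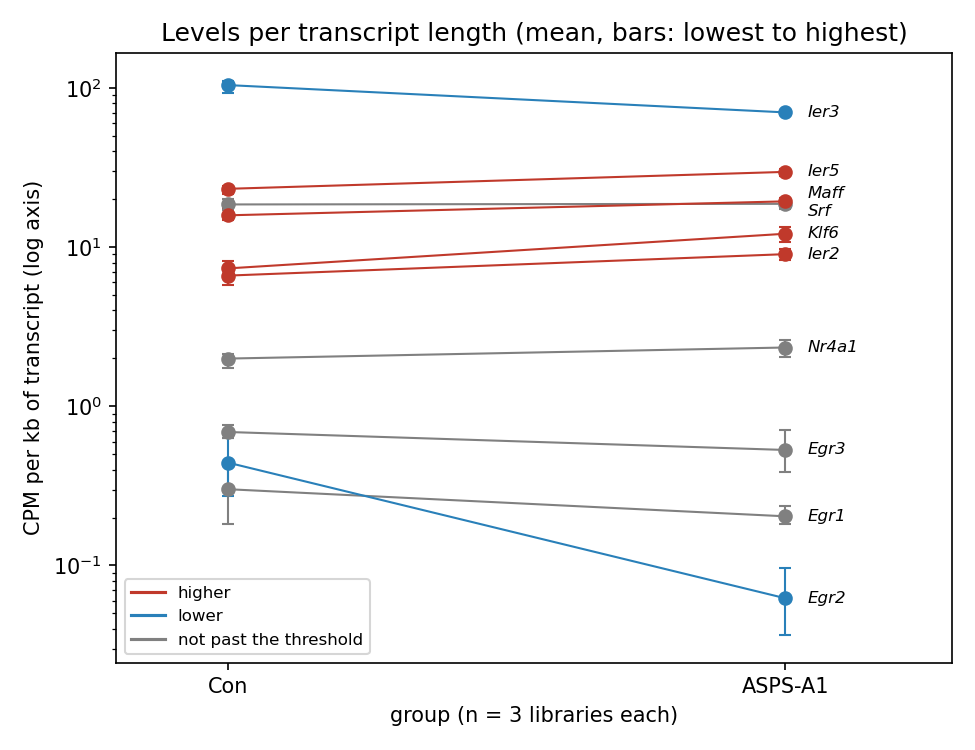
Mean level of each gene per kilobase of transcript (CPM per kb, log axis) in Con and ASPS-A1, with bars from the lowest to the highest of 3 libraries. Ier3 stays the highest in both groups, and Egr2 crosses below Egr1 with ASPS-A1.

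Abundant members varied less between libraries than Egr1 and Egr2 did in Con. The coefficient of variation of the CPM within a group was 3.10% to 9.23% for Ier3, 4.96% to 5.96% for Ier5 and 7.40% to 8.46% for Srf. It was 40.0% for Egr1 and 40.8% for Egr2 in Con and 49.6% for Egr2 with ASPS-A1. Relative to counting error the picture was different: the dispersion index (variance over mean, 1 for pure counting) in Con was 5.51 for Egr1 and 5.84 for Egr2, but 27.3 for Ier3, 7.86 for Maff, 7.77 for Klf6, 7.36 for Ier5 and 7.02 for Srf. It was 4.94 for Ier2, 1.59 for Nr4a1 and 0.736 for Egr3. Spread beyond counting in Con was thus not particular to the EGR genes, and by this index Egr3 had none there. At a given coefficient of variation the index rises with the count, so it does not rank these genes by relative spread. With ASPS-A1 the index was 0.360 for Egr1, 0.885 for Egr2 and 3.82 for Egr3. Con replicate 1 had the highest Egr1 and Con replicate 3 the highest Egr2, so the Con libraries were not ordered alike for both genes.

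Most of the genes have few exons, a feature that the choice of members did not use. The median number of exons was 2, against 9 for the tested genes with a GENCODE transcript. Ier2 and Ier5 had 1 exon, and 7 of the 10 genes had at most 3, as 12.4% of tested genes did. Nr4a1 (8 exons), Srf (7) and Klf6 (4) had more. Transcript lengths ran from 1131 nt for Ier3 to 4484 nt for Egr1, with a median of 2791 nt against 3103 nt, and Egr1, Klf6, Egr3 and Ier5 were longer than that median of the tested genes. GC content had a median of 55.7% against 50.1%, from 42.4% in Klf6 to 64.4% in Srf. None of the 10 genes shared exon sequence with another gene in this annotation, so reads from a neighbour on either strand have no exon in common with them there.

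Median fold changes in these libraries were lower for longer transcripts, so each member was set beside genes within 10% of its length. For Ier3, the shortest, the 425 genes of like length had a median log2 fold change of 0.45, against −0.57 for Ier3 itself, and with the length and GC offsets Ier3 had −0.93. For Klf6 the 1412 genes of like length had −0.19 against 0.72, and with the offsets Klf6 had 0.84. Ier5 likewise lay above its 1503 neighbours (0.35 against −0.09). For Ier2 the median of 708 genes was 0.27 and for Maff that of 1047 genes was 0.19, closer to their own 0.45 and 0.29. Egr1 had −0.56 against −0.21 for 1352 genes, Egr3 had −0.38 against −0.13 for 1401 genes, and Srf and Nr4a1 had neighbours at 0.04. Egr2, with few counts and the limit on its entry given above, had −2.78 against −0.04 for 1463 genes. The part of the length trend in each result was not tested beyond these values.

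**Figure D4:**
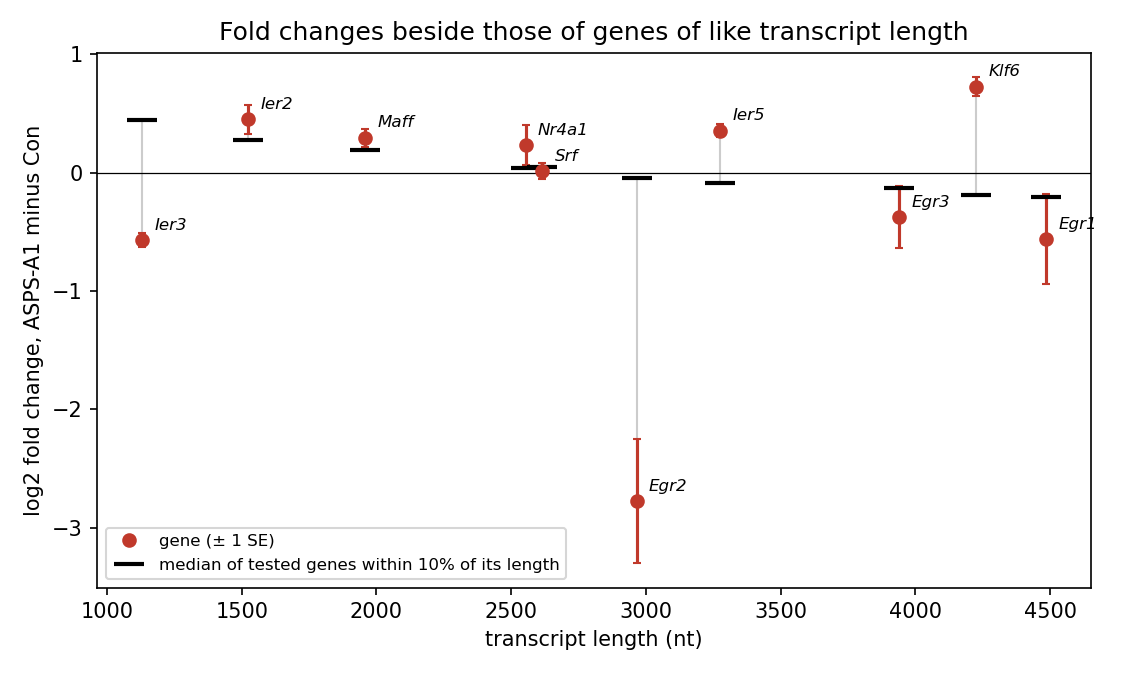
Log2 fold change (ASPS-A1 minus Con, bars ± 1 SE) of each gene against its transcript length in nt, with a black dash at the median of tested genes within 10% of that length. Ier3 lies below its dash, Klf6 and Ier5 lie above theirs, and Srf lies on it.

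Of the genes around SRF more were called lower than higher, and of the actin genes more were called higher. Of 23 SRF cofactors and regulators, 20 were tested, of which 3 rose, 12 fell and 5 did not pass (75.0% called against 65.3% of all genes, median log2 fold change −0.34). That is 15% higher and 60% lower, where 32.4% and 33.0% of all tested genes were. Mrtfa, the actin-sensing coactivator of SRF, fell from 48.8 ± 4.02 to 23.0 ± 1.11 CPM (SD, n = 3), a log2 fold change of −1.09, and its paralog Mrtfb fell by 0.60 on the log2 scale. The cofilin phosphatase Ssh3 fell by 0.58. Elk1, a ternary complex factor that binds beside SRF, rose by 0.45, the EGR corepressor Nab1 by 0.24 and the small GTPase Rhoc by 0.24. The number fallen was 16 with scaling by library totals alone and 8 with the length and GC offsets. The number risen was 1 with library totals, where Nab1 (0.05) and Rhoc (0.05) did not pass, and Rhoc had −0.063 with the offsets.

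Of 31 actin and cytoskeletal genes, many of them known SRF targets, 25 were tested, of which 15 rose, 2 fell and 8 did not pass (median 0.36). That is 60% higher and 8% lower, where 32.4% and 33.0% of all tested genes were. Cytoplasmic γ-actin, Actg1, rose from 568 ± 55.8 to 1465 ± 68.0 CPM (SD, n = 3), the actin monomer binder Pfn1 rose by 1.16 on the log2 scale and the filament-severing protein Cfl1 by 0.98. Vcl, which encodes the adhesion protein vinculin, fell by 0.57, and the actin bundler Lima1 fell by 0.21, a call that ended without ASPS-A1 replicate 1 (−0.16, adjusted p = 0.0856) and with the offsets (−0.031, adjusted p = 0.724). The annotation gives 16.5% of the Cfl1 exon length and 25.5% of that of Vcl to other genes too, and actin genes have pseudogene copies whose reads may be split. Under library totals alone the counts were 12 risen and 5 fallen, and under the offsets 15 and 1.

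Of 19 CREB family members and kinases that act on CREB or SRF, 3 rose, 7 fell and 9 did not pass (52.6% called against 65.3% of all genes, median −0.12). That is 15.8% higher and 36.8% lower, where 32.4% and 33.0% of all tested genes were. The share called lower is thus near that of all genes. The p38-activated kinase Mapkapk2 rose by 0.61 on the log2 scale to 727 ± 25.3 CPM (SD, n = 3), Atf1 rose by 0.28 and the CREB coactivator Crtc2 by 0.21. The acetyltransferase Ep300 fell by 0.91, the CREB kinase Rps6ka5 (MSK1) by 0.89 and the ribosomal S6 kinase Rps6ka3 by 0.61. Under library totals alone the counts were 1 risen and 12 fallen, with Atf1 (0.08) and Crtc2 (0.010) not past the threshold, and under the offsets 6 and 6.

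In each of 3 further lists, of Maf, KLF and SP, and nuclear receptor genes, more genes were called lower than higher. In that order 28.6%, 7.69% and 14.3% were called higher and 57.1%, 38.5% and 57.1% lower. Of all tested genes 32.4% were higher and 33.0% lower, so the KLF and SP share called lower is near that of all genes. The lists are short, and the receptor list holds no NR4A gene. Among 7 tested of 10 Maf factors and partners, the small Maf Mafk rose by 0.57 on the log2 scale, beside Maff, and Mafg fell by 0.37. The CNC factor Nfe2l1 rose by 0.64, while Nfe2l2, which encodes NRF2, fell by 0.47 and its inhibitor Keap1, with 10.9% of its exon length shared, by 1.06. In all 2 of these rose and 4 fell (85.7% called against 65.3% of all genes, median −0.37), with 2 fallen under the offsets, as many as rose, where Mafg had −0.10 (adjusted p = 0.0925). Among 13 tested of 16 KLF and SP factors other than Klf6, 1 rose and 5 fell (46.2% called, median −0.18): Klf13 fell by 1.55, Klf9 by 1.26 and Klf10 by 1.24, and Sp4 rose by 0.27, a call lost without ASPS-A1 replicate 3 (0.16), Con replicate 1 (0.25) or Con replicate 2 (0.24), with upper-quartile factors (0.21) or with library totals alone (0.07). Of the 13 tested, 7 did not pass. Among 7 tested of 12 retinoid X, orphan and clock-related nuclear receptors, 1 rose and 4 fell (71.4% called, median −0.34), with Nr1d1 at 0.43 and Nr2c2 (−0.64), Nr2f6 (−0.62) and Nr1d2 (−0.45) fallen. For Nr2c2 31.2% and for Nr2f6 54.4% of the exon length is shared with other genes.

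Other immediate-early genes, in a list that holds Atf3 but no Fos or Jun gene, also went both ways. Of 38 listed, 28 were tested, of which 12 rose, 7 fell and 9 did not pass (67.9% called, near the 65.3% of all genes, median 0.01). That is 42.9% higher and 25% lower, where 32.4% and 33.0% of all tested genes were. Under library totals alone the counts were 10 risen and 10 fallen, under upper-quartile factors 12 and 10, and under the offsets 16 and 8. Id3, an inhibitor of basic helix-loop-helix factors, rose from 2.40 ± 0.424 to 16.2 ± 2.48 CPM (SD, n = 3), its paralog Id1 rose by 1.88 on the log2 scale and the stress-responsive kinase Plk3 by 1.20. Btg2, an antiproliferative factor, fell from 25.8 ± 1.72 to 7.09 ± 0.798 CPM, Klf10 fell by 1.24 and the survival protein Mcl1 by 1.11. Klf10 is in this list and among the KLF factors.

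**Figure D5:**
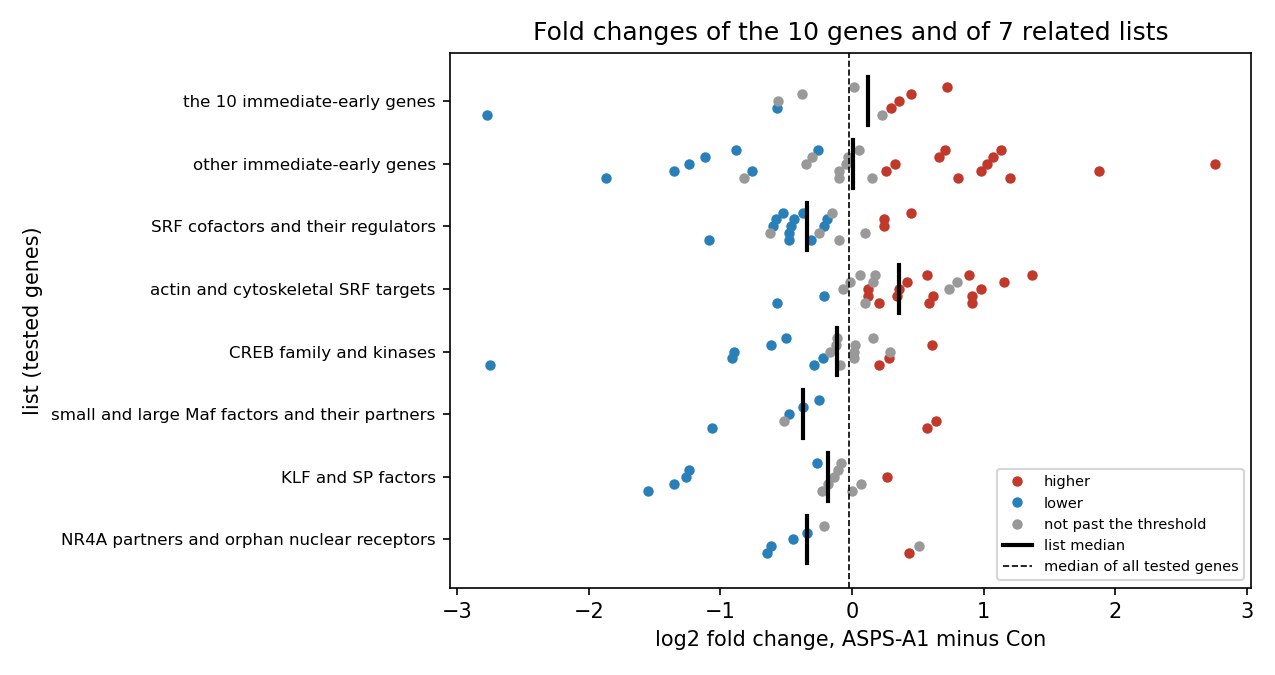
Log2 fold changes (ASPS-A1 minus Con) of the 10 genes and of the tested genes of 7 related lists, coloured by the edgeR call, with a black bar at each list's median and a dashed line at the median of all tested genes (−0.02). The actin list has its median at 0.36, and that of the SRF cofactors is at −0.34.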

How the data were processed

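The authors deposited whole-number read counts per gene symbol without normalization, per the file headers, in a column for each library. The submitters' processing notes name HISAT2 2.1.0, fastp 0.22.0, DESeq 1.38.3 and HTSeq 0.9.1. For build, annotation and strand setting, the sources used here give nothing. Libraries were grouped by the treatment label, and no column was left out.

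Genes were kept with filterByExpr of edgeR 4.0.16 (minimum count 10, minimum total 15), scaled with TMM factors and tested with glmQLFTest (robust, two-sided, R 4.3.3) at an adjusted p of 0.05. The SE is the absolute log2 fold change over the square root of F. The code was tested on simulated data. Alternatives were other scalings, DESeq2 1.42.0, limma-voom (limma 3.58.1), 2 filters, a replicate block, leaving out each library, thinning, no robust estimation, and lowess offsets (span 0.3) on transcript length and GC content (GENCODE M21, 97.1% of tested genes). Intervals cover counting error only.

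The members and lists were chosen with earlier results of these data known. From each list up to 3 called genes per direction with at least 5 CPM are named, by size of change.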

Additional observations from a re-analysis of the deposited data

How the results depend on the processing

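All 17 alternatives gave a value for 8 of the 10 genes, and 16 did for Egr1 and Egr2, which the filter of 1 CPM in 3 libraries removed. Ier3 (−0.93 to −0.53), Klf6 (0.53 to 0.84) and Ier5 (0.16 to 0.43) kept direction and call under every one of these. Egr2 (−3.25 to −2.42) also kept both, but on few counts with ASPS-A1. Apart from the fit with no filter, each alternative that gave Egr2 a value used the filter that it passed through Con alone. They repeat that choice, so for Egr2 they are not separate support. Scaling by library totals alone shifted all log2 fold changes by a median of −0.20. With it 2529 genes were higher and 5454 lower, against 3783 and 3852, and among the 10 genes 2 were higher and 3 lower. With the 1 CPM filter 1 of the 10 was lower. Srf had −0.18 with library totals and −0.039 with upper-quartile factors, and −0.055 to 0.066 when 1 library was left out (−0.055 without ASPS-A1 replicate 1 and −0.041 without Con replicate 1). Library totals also gave 1 higher and 16 lower SRF cofactors, 5 lower actin genes, 1 higher and 12 lower CREB and kinase genes, and 0 higher and 8 lower KLF and SP factors. Upper-quartile factors gave 0 higher KLF and SP factors. The offsets gave 8 lower SRF cofactors, 1 lower actin gene, 6 higher CREB and kinase genes, 2 lower Maf genes and partners and 2 higher KLF and SP factors, and Rhoc had −0.063. Leaving out 1 library gave 1 to 2 lower actin genes (1 without ASPS-A1 replicate 1) and 0 to 1 higher KLF and SP factors. The cause of these differences was not tested. No shared effect of the library numbers in the titles was seen: same-number deviations had correlations of −0.0323, 0.00723 and −0.00343 across genes, and 0 of 3 ASPS-A1 libraries correlated best with their own number. These values cannot show whether libraries were handled in pairs. With a replicate block 3746 genes were higher and 3807 lower, and 4 and 2 of the 10 genes. Egr1, Egr2 and Egr3 had at most 85 counts in a library, so their counting error is the largest of the set.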

Other observations

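Some relatives of the members and other genes of the lists are named here after their values were seen. Of the relatives, Nr4a2, Nr4a3, Egr4, Klf2 and Klf4 were at low levels. Mafk, Mafg and Klf7 were not, and Klf7 had 32.1 CPM with ASPS-A1 and 38.6 CPM in Con. For Klf7, 39.4% of the exon length is shared with other genes. The nuclear receptor Nr4a2 fell by 0.88 on the log2 scale (adjusted p = 0.0150, edgeR), from 169 counts over the Con libraries to 68, while Nr4a1 did not pass. Nr4a3 (8 and 14 counts over the ASPS-A1 and the Con libraries) was too low to test, and Egr4 was at 0 counts in all 6 libraries. Klf2, a restraint on macrophage activation, fell by 1.36 on the log2 scale (adjusted p = 0.00327, edgeR), from 114 counts to 33, and Klf4 was too low to test (3 and 8 counts). Klf2 had 18, 9 and 6 counts with ASPS-A1 and 37, 40 and 37 in Con. Like Egr2, it entered the test through Con, where it was higher, which limits what its call and groups show. The EGR corepressor Nab2 fell by 0.44 (adjusted p = 0.000903, edgeR) while Nab1 rose, though 42.2% of the Nab2 exon length is shared with other genes. The groups of Nr4a2, Klf2 and Nab2 did not overlap. The stress-responsive factor Atf3 rose by 0.33 on the log2 scale and Csrnp1 by 0.98 (adjusted p = 0.000149 and 8.40e-15, edgeR).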
